A study of Homo sapiens with 171 samples.

Results

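MR1 and 8 genes of the classical antigen presentation machinery were followed across 46 ovarian cancer cell lines grown with or without cisplatin, a DNA-damaging platinum compound. Of a list of 10 symbols, 9 had a probe set annotated to that symbol alone: MR1, HLA-DMA, B2M, TAP1, TAP2, PSMB8, PSMB9, NLRC5 and CIITA. HLA-E, the tenth, was not analysed here. These 9 of 18417 measured genes were chosen by their function and by values of these same arrays, namely the cisplatin change over the lines and the untreated level of each line. Their levels and changes are therefore descriptions. Counts of members past a limma threshold stand beside the share of all genes that passed, and nothing is read from them.

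MR1 is a protein related to MHC class I that shows small metabolites of microbial riboflavin synthesis to mucosal-associated invariant T cells. MR1 and the class I heavy chains both pair with beta-2-microglobulin, the product of B2M. Peptides for class I are cut by the proteasome, in which PSMB8 and PSMB9 are the interferon-inducible catalytic subunits, and are carried into the endoplasmic reticulum by the transporter built from TAP1 and TAP2. HLA-DMA encodes a chain of HLA-DM, which edits the peptides bound to class II molecules. NLRC5 and CIITA are regulators that switch on class I and class II genes through an enhanceosome on the X and Y boxes of their promoters.

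The cisplatin cultures received the drug for 48 h at the GI50 of their own line, so the dose was not the same in all lines, and the other cultures were left untreated. Of the 167 cultures, 82 were given cisplatin and 85 were untreated. Batches 1 to 3 held 18 lines with replicate cultures, 3 per arm with the exception of 2 cisplatin cultures of HeyA8, and the other 28 lines entered from batches 4 and 5 with 1 culture per arm. Nothing in the labels says that numbered cultures came from separate growths, so p-values that rest on them measure a spread that may be technical. Values are log2 array signals, and 1 unit is a doubling. Every change below is a difference of means, cisplatin minus untreated, taken inside 1 line and 1 batch.

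Batches 1 to 3 were on another scale than batches 4 and 5, so levels were set side by side only within a set of batches. KRT18, a keratin of epithelial cells, stood between 8.83 and 13.28 in cisplatin groups and between 8.74 and 13.29 in untreated groups of the replicated lines, whereas the epithelial adhesion gene EPCAM was as low as 2.99 in CH1 with cisplatin and 2.92 in untreated PA-1. OVCAR-10 stood apart: PTPRC, which encodes the leukocyte antigen CD45, was at 9.30 with cisplatin and 9.48 untreated there, against 2.53 to 4.56 in all cultures of the other 17 lines, in which the keratin KRT8 lay between 7.62 and 13.3. KRT8 averaged 7.91 in the OVCAR-10 cisplatin cultures, inside that range, and 6.79 in its untreated cultures, below it. Whether the line is the one that its label names was not tested, and its places in the orders of lines below hold for the cultures so labelled. For the other 13 of 14 leukocyte markers the OVCAR-10 cultures did not lie above those of the other lines. The mean of the 14 markers ranged from 4.67 to 5.22 in cisplatin groups and from 4.73 to 5.26 in untreated groups. In addition 3 cultures correlated least with the others of their line, namely cisplatin culture 1 of OVCAR-10 (highest r 0.622), untreated culture 1 of A2008 (0.82) and cisplatin culture 3 of OVCA420 (0.848). Changes named for OVCA420, OVCAR-10 and A2008 are given with and without them.

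The promoter sequences of 4 members are shown, and letters that regulators of this pathway are known to bind occur in them. RefSeq windows of assembly GRCh38.p14, from 250 bases before to 50 bases after an annotated start, were at hand for 7 of the members with 10 starts. Capitals mark the matches, on either strand, to 4 motifs. The X box was searched as GCAAC and GATG with any 1 base between them, and the interferon-regulatory-factor element as GAAA repeated after any 2 bases. The NF-kB element was searched as GGGA and TTTCC with any 1 base between them, and CCAAT is the core of the Y box. The windows are the second start of MR1 (chr1:181033733-181034032, plus strand), B2M (chr15:44711267-44711566, plus strand), the first start of TAP1 (chr6:32853655-32853954, minus strand) and PSMB9 (chr6:32853942-32854241, plus strand).
MR1: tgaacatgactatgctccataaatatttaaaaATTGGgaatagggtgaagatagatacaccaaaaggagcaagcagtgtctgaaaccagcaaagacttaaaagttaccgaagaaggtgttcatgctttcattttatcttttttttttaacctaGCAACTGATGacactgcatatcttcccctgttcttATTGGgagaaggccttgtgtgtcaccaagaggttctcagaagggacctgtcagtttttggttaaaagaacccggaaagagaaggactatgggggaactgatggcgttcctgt
B2M: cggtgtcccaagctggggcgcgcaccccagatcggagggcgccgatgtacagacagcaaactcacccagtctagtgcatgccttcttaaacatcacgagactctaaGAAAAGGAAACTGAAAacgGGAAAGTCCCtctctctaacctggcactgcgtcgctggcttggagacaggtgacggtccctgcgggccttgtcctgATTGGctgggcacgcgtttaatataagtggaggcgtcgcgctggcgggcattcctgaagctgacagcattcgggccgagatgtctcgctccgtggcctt
TAP1: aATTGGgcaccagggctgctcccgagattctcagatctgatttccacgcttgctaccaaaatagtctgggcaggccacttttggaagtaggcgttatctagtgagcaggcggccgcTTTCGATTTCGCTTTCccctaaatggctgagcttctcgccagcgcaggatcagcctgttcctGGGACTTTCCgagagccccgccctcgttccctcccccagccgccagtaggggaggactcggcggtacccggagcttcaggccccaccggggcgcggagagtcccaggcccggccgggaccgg
PSMB9: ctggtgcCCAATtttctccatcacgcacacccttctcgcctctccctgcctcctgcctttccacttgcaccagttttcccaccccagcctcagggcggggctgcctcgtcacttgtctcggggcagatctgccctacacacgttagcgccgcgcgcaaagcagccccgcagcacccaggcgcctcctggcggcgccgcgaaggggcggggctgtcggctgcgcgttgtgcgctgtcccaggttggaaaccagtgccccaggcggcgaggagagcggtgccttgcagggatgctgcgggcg

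The MR1 window held an X box match 97 bases before the start and 2 CCAAT boxes, all absent from the window of the other MR1 start. B2M and TAP1 each held 2 overlapping interferon-regulatory-factor elements, an NF-kB element and a CCAAT box. Of these motifs the PSMB9 window held only a CCAAT box, which is the one at the far end of the TAP1 window. TAP1 and PSMB9 start back to back with 487 bases between them, and the windows share 13 bases. The interferon-regulatory-factor and NF-kB elements of TAP1 lie between the starts too, beyond the reach of the PSMB9 window. Among the windows not shown, that of TAP2 and the second of PSMB8 each held an interferon-regulatory-factor element. The HLA-DMA window held 2 CCAAT boxes. Of 35116 promoter windows, 0.14% held the X box letters on either strand, 3.57% the interferon-regulatory-factor element, 0.558% the NF-kB element and 34.6% a CCAAT box. A match describes the letters of a window and not a bound site. Only the letters given above were searched, so a window without a match may hold another form of the motif.

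MR1 was the member with the highest mean difference under cisplatin. It was higher by 0.59 ± 0.07 (SE, n = 46 lines, 1.51-fold) and was higher in 42 lines, with a mean difference of 0.74, 0.65, 0.62, 0.48 and 0.57 in batches 1 to 5. Line values ran from -0.28 in UWB1.289 to 1.58 in OVCA432, and 24 lines were above 0.5. Ranked by mean difference among the 18417 genes it stood at place 15. In bulk RNA, fewer cells of a kind and less RNA per cell cannot be told apart, here and in all that follows.

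The single cultures show how MR1 differed. In IGROV-1 the cisplatin cultures stood at 6.29, 6.66 and 6.65, against 5.19, 5.22 and 4.78 in untreated cultures. In OVCA420 they stood at 7.72, 7.69 and 8.04, against 6.59, 6.55 and 6.56 in untreated cultures, a change of 1.25 with and 1.14 without cisplatin culture 3. HeyA8 had 7.43 and 7.64 with cisplatin, against 6.37, 6.42 and 6.26 untreated. In all of these the groups lay about 1 unit or more apart, with no overlap.

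MR1 levels overlapped between arms in 2 of the 18 replicated lines. In OVCAR-8 the cisplatin cultures stood at 4.84, 4.44 and 4.21, against 3.93, 4.37 and 4.61 in untreated cultures. In DOV13B they stood at 8.10, 8.11 and 7.97, against 7.74, 7.95 and 8.11 in untreated cultures. OVCAR-8 lies near the low end and DOV13B near the high end of the MR1 levels. OVCA433, which was grown in both sets of batches, differed in MR1 by 0.60 in batch 2 and by 0.53 in batch 4. In the same batches it had HLA-DMA at 0.38 and -0.08, PSMB9 at 0.18 and 0.67, and TAP2 at -0.04 and -0.48. Its B2M, TAP1, PSMB8, NLRC5 and CIITA changes lay closer together. Batch 4 held 1 culture per arm.

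**Figure D1:**
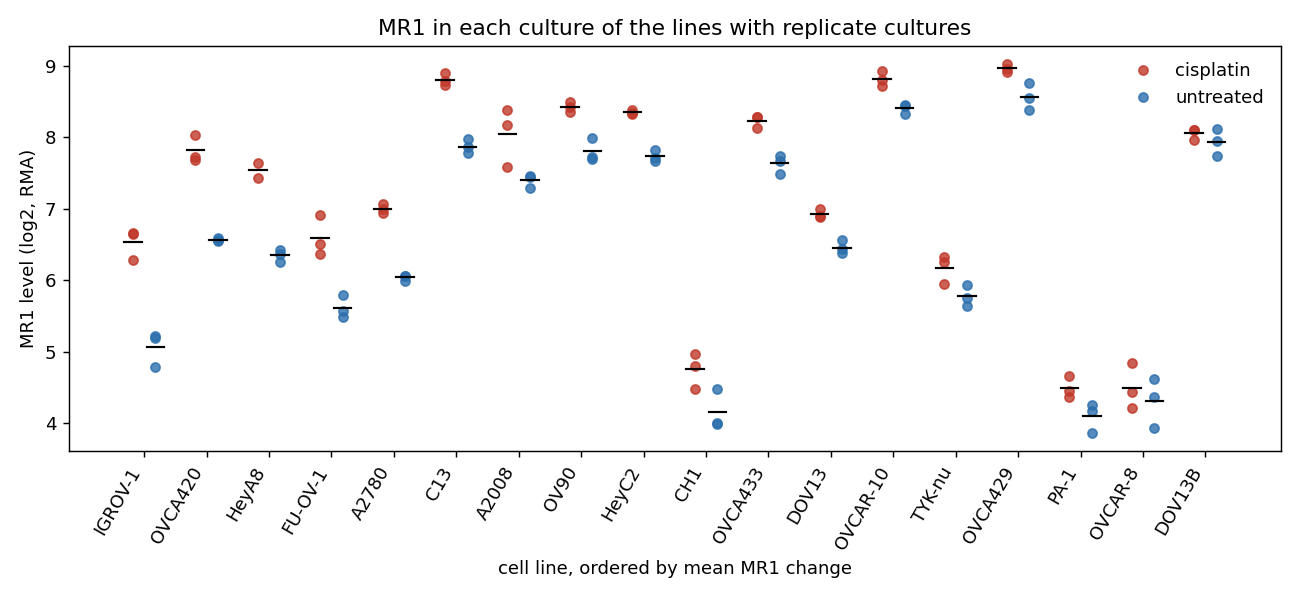
MR1 level (log2) in each culture of the 18 lines with replicate cultures, cisplatin cultures in red on the left and untreated cultures in blue on the right of each line, with the group mean as a black bar. IGROV-1, with the highest mean change, is on the left, and OVCAR-8 and DOV13B, where the arms overlap, are on the right.

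The span of untreated MR1 between lines was wider than its change in any line. In batches 1 to 3 it ran from 4.10 in PA-1 to 8.57 in OVCA429 with a median of 6.51, a span of 4.47 units. The order from the top was OVCA429, OVCAR-10, DOV13B, C13, OV90, HeyC2, OVCA433, A2008, OVCA420, DOV13, HeyA8, A2780, TYK-nu, FU-OV-1, IGROV-1, OVCAR-8, CH1 and PA-1. Cultures of neighbouring lines overlapped for 10 of 17 neighbour pairs, and OVCAR-8, CH1 and PA-1, all between 4.10 and 4.30, could not be ordered. A2008, with a mean of 7.40, and OVCA420, with a mean of 6.57, did not overlap. In the single-culture batches the lowest untreated MR1 was 2.95 in Caov-2 and the highest 7.48 in OVK-18.

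B2M, the partner chain of MR1 and class I, had a mean difference of 0.16 ± 0.06 (SE, n = 46) and was higher in 28 lines and lower in 18. Batch 4 stood at -0.02, and the other batches at 0.17 to 0.28. In OVCA420 cisplatin cultures had 9.71, 9.83 and 10.57, against 9.35, 9.11 and 8.995 in untreated cultures, a change of 0.89 with and 0.62 without cisplatin culture 3. In OVCA429 the B2M groups overlapped. Line values ran from -0.69 in DOV13A to 1.24 in Hey, both measured in 1 culture per arm.

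One line departed from the rest in B2M level. In ovary1847, in batch 4, B2M stood at 6.12 with cisplatin and 6.50 untreated, the lowest of 12 lines in both arms, where the batch medians were 9.77 and 9.71. The same 2 cultures had the highest TAP1 of the batch, at 7.43 and 7.01, and the highest or next highest PSMB9, at 8.21 and 7.43. MR1 there was at 5.83 and 4.81. Each arm of this line was a single culture, so the departure has no replicate check beyond the likeness of the arms. In the replicated set B2M was lowest in PA-1 at 8.39, with A2780 at 8.58 next to it and overlapping.

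HLA-DMA was higher by 0.38 ± 0.07 (SE, n = 46, 1.31-fold) and in 38 lines. Its batch means were 0.53, 0.47, 0.54, 0.46 and 0.20. OVCA420 had 7.54, 7.64 and 7.32 with cisplatin, against 6.25, 6.42 and 6.23 untreated, a change of 1.202 with and 1.294 without cisplatin culture 3. FU-OV-1 had 7.62, 7.99 and 7.86 with cisplatin, against 6.79, 6.98 and 6.91 untreated. Neither line had overlapping groups, but in TYK-nu and DOV13 the arms overlapped, with changes of 0.04 and 0.03. The highest value was 1.86 in A2780cisR (6.62 with cisplatin, 4.76 untreated, 1 culture per arm) and the lowest -0.60 in Caov-3.

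TAP1 and TAP2, the subunits of the peptide transporter, did not have like values. TAP1 was higher by 0.29 ± 0.05 (SE, n = 46, 1.22-fold), in 38 lines, with batch means between 0.24 and 0.39. HeyA8 had TAP1 at 7.40 and 7.62 with cisplatin, against 6.66, 6.37 and 6.98 untreated. OVCAR-8 had 8.48, 8.21 and 8.02 with cisplatin, against 7.71, 7.53 and 7.52 untreated. Both lines had separate groups, whereas in A2008 TAP1 overlapped, with a change of 0.01, and of -0.03 without untreated culture 1. In IGROV-1 the cisplatin cultures lay at 7.10, 7.08 and 7.11, just below the untreated cultures at 7.26, 7.15 and 7.12.

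TAP2 had a mean difference of 0.05 ± 0.05 (SE, n = 46), which hid opposite signs. It was -0.12 over the 18 replicated lines, where 12 lines were lower and 6 higher, and 0.16 over the 28 lines of batches 4 and 5, where 6 were lower and 22 higher. PA-1 had TAP2 between 6.31 and 6.65 with cisplatin, against 6.80 to 6.99 untreated. OVCA433, the line in both sets, had TAP2 at -0.04 in batch 2 and -0.48 in batch 4. The deposited table holds 3 probe sets for TAP2, which differed from the one used by medians of 0.11 and 0.03 per array. Untreated TAP2 ran from 6.69 to 9.26 in batches 1 to 3. In batch 4 it ran from 4.44 to 6.15 and in batch 5 from 4.23 to 5.345. The sets of batches differ in lines, in scale and in replication, and which of these goes with the sign was not tested.

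PSMB8 and PSMB9, which are neighbours of the TAP genes on chromosome 6, were higher on average, with wide scatter. PSMB9 differed by 0.31 ± 0.07 and was higher in 34 lines, and PSMB8 differed by 0.20 ± 0.07 and was higher in 33 (SE, n = 46). OVCAR-8 had PSMB9 at 8.42, 8.35 and 8.26 with cisplatin, against 7.55, 7.28 and 7.24 untreated, and PSMB8 at 9.28, 9.28 and 9.12 with cisplatin, against 8.38, 8.31 and 8.11 untreated. In A2780 PSMB9 went the other way, with 6.68, 6.86 and 6.76 with cisplatin, against 7.38, 7.47 and 7.37 untreated, although TAP1, whose start lies next to that of PSMB9, had 8.68, 8.70 and 8.73 with cisplatin, against 8.42, 8.45 and 8.30 untreated. IGROV-1 had PSMB9 at -0.46 together with PSMB8 at 0.63. In IGROV-1 the arms did not overlap for either gene.

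The highest PSMB8 and PSMB9 changes, both in OVCA420, owed part of their size to a single culture, though the arms did not overlap for either gene. In OVCAR-10 the sign of the PSMB8 change depended on a single culture. In OVCA420 PSMB9 stood at 6.35, 6.32 and 9.72 with cisplatin, against 5.39, 5.47 and 5.70 untreated, which gives a change of 1.94 with and 0.81 without cisplatin culture 3. PSMB8 in the same line stood at 7.71, 7.66 and 9.19 with cisplatin, against 6.95, 6.73 and 6.69 untreated, and its change was 1.39 with and 0.89 without that culture. OVCAR-10 had PSMB8 at 8.17, 4.42 and 4.26 with cisplatin, against 5.35, 4.94 and 5.29 untreated. The PSMB8 change of OVCAR-10 was therefore 0.42 with cisplatin culture 1 and -0.86 without it.

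The regulators NLRC5 and CIITA had small mean differences. NLRC5 was at -0.01 ± 0.03 (SE, n = 46) and higher in 26 lines, with line values from -0.54 in RMG-I to 0.52 in OVK-18. CIITA was at -0.05 ± 0.03 and lower in 29 lines, from -0.63 in OVK-18 to 0.32 in OVCAR-8. CIITA had untreated levels of 5.31 to 5.78 in the replicated lines, and all 17 neighbour pairs in its order of lines overlapped. NLRC5 ran from 5.41 in PA-1 to 7.0 in OVCA429. In OVCA420 NLRC5 had 6.07, 5.91 and 6.41 with cisplatin, against 5.69, 5.72 and 5.81 untreated, with no overlap. Its change there was 0.39 with and 0.25 without cisplatin culture 3.

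**Figure D2:**
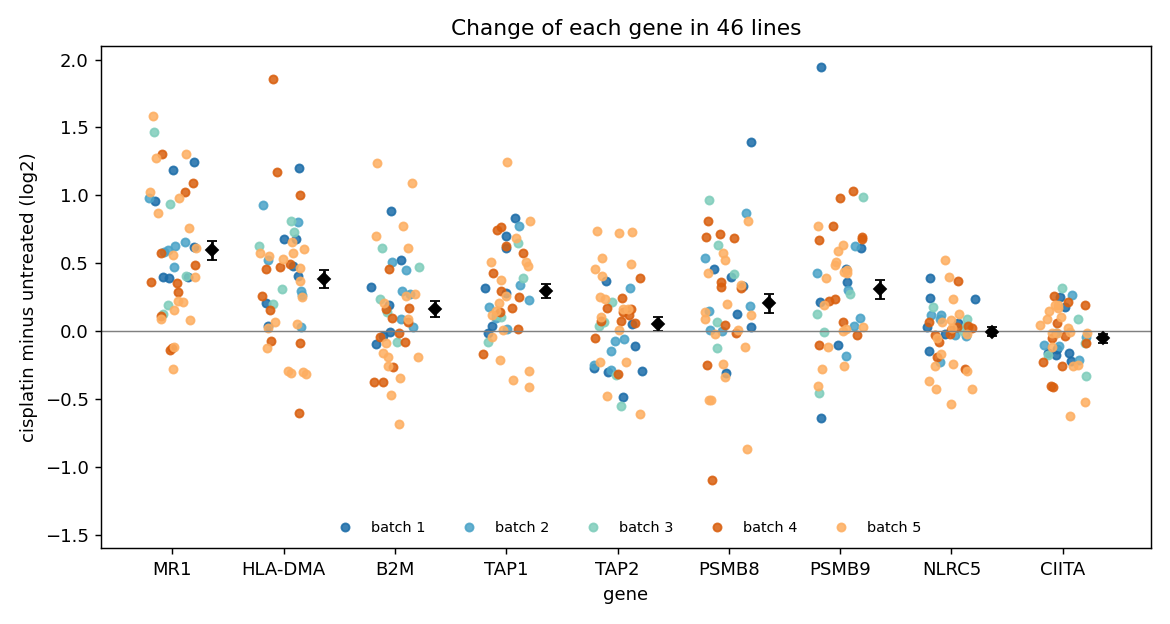
Cisplatin minus untreated (log2) of each of 9 genes in 46 lines, 1 point per line coloured by batch, with the mean and SE over lines as a black diamond. MR1 has the highest mean at 0.59 and only 4 lines below 0; NLRC5 and CIITA centre on 0, and the TAP2 points of batches 4 and 5 lie mostly above 0 and those of batches 1 to 3 mostly below.

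Over all lines, 5 of the 9 members had a limma adjusted p under 0.05 (Benjamini-Hochberg over all genes) and were higher: MR1, HLA-DMA, TAP1, PSMB8 and PSMB9; 0 were lower. Among all genes 9.7% passed, 4.98% as higher and 4.72% as lower. The members were chosen with this contrast known, so the count describes them and is no test. B2M passed too under 5 of 15 alternatives. These were equal weights for the batches, the replicated lines alone, 1 line of each family, arrays centred on their median, and array weights. In the replicated lines alone PSMB9 did not pass. The B2M mean over the 15 ran from 0.10 to 0.27. PSMB8 left the 5 without the line OVCAR-10, without the 3 cultures that stood apart, and without the cultures numbered 1 or those numbered 3. Without the 11 lines of batch 4, MR1, HLA-DMA and TAP1 passed, and with only batches 4 and 5, MR1, TAP1 and PSMB9 passed. Of all genes 1787 passed in the main fit, but 627 without batch 4 and 987 with only batches 4 and 5. In the alternatives named for B2M 2006, 1335, 2204, 1629 and 2657 genes passed, in that order. In those named for PSMB8 1724, 1806, 1726 and 1678 did. Nothing is read from which members entered or left. MR1, HLA-DMA and TAP1, higher in 42, 38 and 38 lines when taken singly, were all higher in 31 of the 46 lines. Whether this joint count differs from what the single counts would give was not tested.

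Within the 18 replicated lines, 39 of 162 combinations of member and line passed the limma threshold as higher and 2 as lower, where 4.55% and 3.68% of all combinations of gene and line did. MR1 passed as higher in 13 lines, HLA-DMA in 11, TAP1 in 6, B2M in 5, PSMB9 in 2, and PSMB8 and NLRC5 in 1 each, the last 2 in OVCA420, where both changes were over 1.5 times as large with cisplatin culture 3 as without it. The 2 lower ones were TAP2 in PA-1 and IGROV-1, and in IGROV-1 its groups overlapped. Groups did not overlap in 69 combinations as higher and in 13 as lower, where 13.1% and 12.1% of all combinations were so, and MR1 accounted for 16 of the 69. Without the line OVCAR-10 the threshold counts were 43 and 2, and without the 3 cultures they were 49 and 5. They were 23 and 0 without the cultures numbered 2. The share of all combinations was taken for the main fit only, so these shifts cannot be set against it. These contrasts too were used by the rule, and nothing is read from them.

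By the limma F test on the change between the replicated lines 6 of the 9 members passed, where 51.0% of all genes did; the rule used these changes, and nothing is read from the count. OVCAR-8 and TYK-nu had all 9 members higher, and OVCA420 and C13 had 8. A2780 had 3 members higher, among them MR1 at 0.96. DOV13B had its member changes within -0.13 to 0.20.

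**Figure D3:**
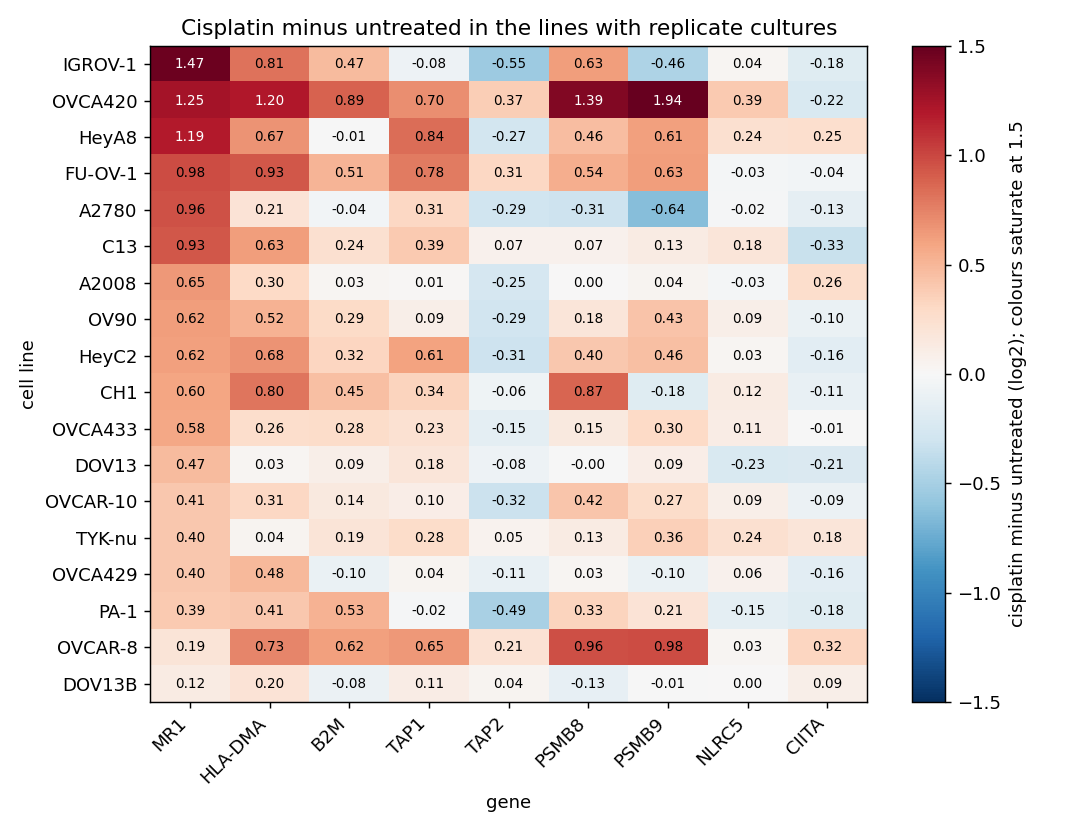
Cisplatin minus untreated (log2) of 9 genes (columns) in the 18 lines with replicate cultures (rows, ordered by MR1 change), red for higher and blue for lower, with the value in each cell and OVCA433 combined over its 2 batches. OVCAR-8, near the bottom with MR1 at 0.19, has PSMB8 and PSMB9 at 0.96 and 0.98; A2780 and IGROV-1 have PSMB9 at -0.64 and -0.46 with MR1 at 0.96 and 1.47.

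Changes of members went together only in part. Over the 46 line differences, Pearson's r was 0.51 for TAP1 and PSMB8, 0.436 for TAP1 and TAP2 and 0.362 for HLA-DMA and PSMB8. The last was 0.823 over the 18 replicated lines and 0.163 over the 28 others, whereas TAP1 and PSMB8 had 0.493 and 0.528 and TAP1 and TAP2 had 0.589 and 0.463. MR1 and HLA-DMA had r of 0.224 (0.575 over the 18 replicated lines and 0.0902 over the 28 others), and MR1 and CIITA -0.33. Points share arrays and batches, so these are descriptions. The genes outside the members whose change was most like that of MR1 over lines were ACSS3 (r 0.571), SLX4IP (0.556), MANBA (0.554), FBXO16 (0.54) and TRIM2 (0.535). In the replicated lines alone these 5 had r of 0.345, 0.0425, 0.323, 0.215 and 0.35 in that order.

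Untreated levels of the proteasome and transporter genes followed each other from line to line. With each line centred on its batch mean, r over 46 lines was 0.831 for TAP1 and PSMB9, 0.791 for PSMB8 and PSMB9, 0.731 for PSMB9 and NLRC5, and 0.638 for TAP1 and NLRC5. TAP2 had lower r than these, at 0.577 with TAP1, 0.557 with PSMB8 and 0.605 with PSMB9. Over the 28 lines of batches 4 and 5 those were 0.352, 0.388 and 0.368. TAP1 and MR1 had r of 0.597. Each of these was higher over the 18 replicated lines than over the 28 others, at 0.903 and 0.675 for TAP1 and PSMB9 and 0.755 and 0.343 for TAP1 and MR1. OVCA429 was at the top for MR1 (8.57), TAP1 (9.69), PSMB8 (10.09), PSMB9 (11.09) and NLRC5 (7.0). PA-1 was lowest for MR1, B2M, PSMB9 and NLRC5, but at place 4 of 18 for HLA-DMA at 7.29. HLA-DMA had its own order, with OVCAR-8 highest at 8.34 and HeyC2 lowest at 5.76, and its r with CIITA was 0.351.

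Some lines broke the common order. Of the 18 replicated lines OVCAR-10 was at place 3 for TAP1 at 9.12 and at place 7 for PSMB9 at 8.72, but at place 13 for PSMB8 at 5.19. A2780 was at place 8 for TAP1 at 8.39 and at place 14 for PSMB8 at 5.02. B2M and PSMB8 had r of 0.901 over the 18 replicated lines and 0.159 over the 28 others, which include ovary1847. The untreated levels most like that of TAP1 outside the members were those of POMT1 (r 0.665), SHFL (0.658), ARRDC4 (0.65), CLIP1 (0.626) and DUSP5P1 (0.606). In the replicated lines these 5 had r of 0.747 to 0.822, and over the 28 others 0.375, 0.546, 0.517, 0.575 and 0.144 in that order. Those most like CIITA were PIGR (0.685), FFAR1 (0.669), POU3F4 (0.608), CD300LG (0.581) and DLX4 (0.576), over a narrow range of levels.

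**Figure D4:**
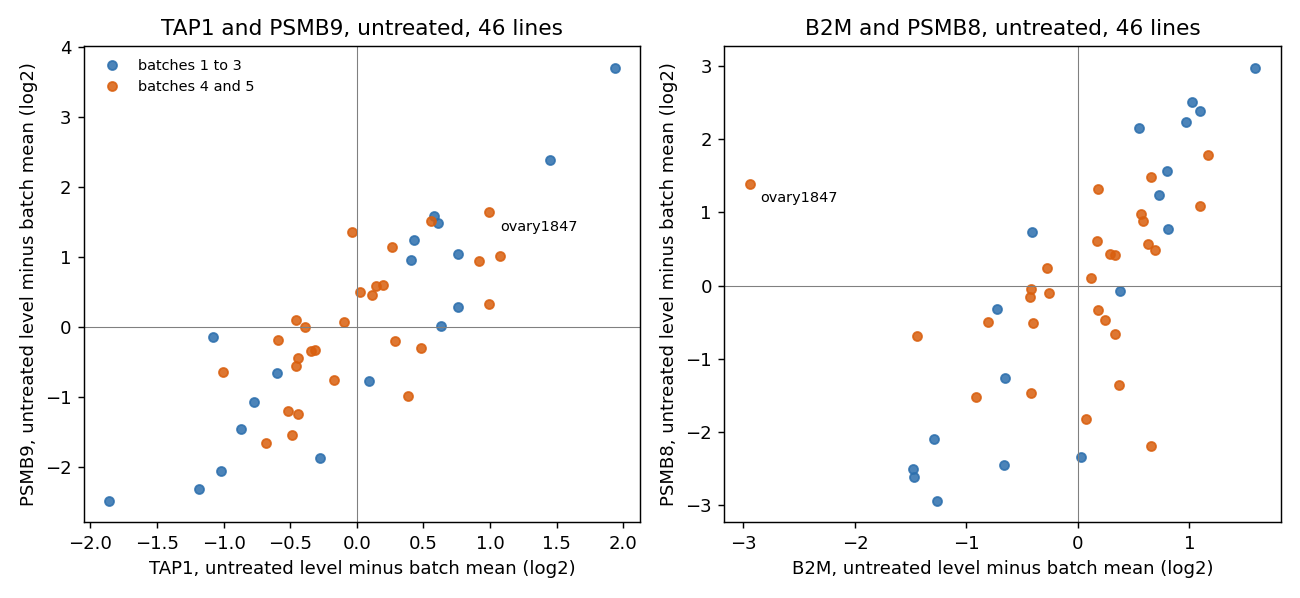
Untreated level of each of 46 lines minus its batch mean (log2), PSMB9 against TAP1 on the left and PSMB8 against B2M on the right, with batches 1 to 3 in blue and batches 4 and 5 in orange. TAP1 and PSMB9 rise together (r 0.831), and ovary1847 lies far to the left for B2M while being among the highest for TAP1, PSMB8 and PSMB9.

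Related lines were set side by side, as a description, since the rule used the levels and changes by line. HeyC2 and HeyA8 share a batch, whereas C13 and A2008, and DOV13B and DOV13, lie in different batches, so that line and batch cannot be told apart in their levels. Untreated MR1 stood at 7.70, 7.83 and 7.67 in HeyC2, against 6.37, 6.42 and 6.26 in HeyA8, a difference of 1.39 ± 0.14 (SE, 2.62-fold). It stood at 7.74, 7.95 and 8.11 in DOV13B, against 6.43, 6.56 and 6.38 in DOV13, a difference of 1.48 ± 0.14 (SE, 2.79-fold). Both pairs were separate in every culture. In C13 MR1 was higher than in A2008 by 0.47 ± 0.14 (SE), and by 0.42 without the A2008 culture that stood apart.

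Other members differed between untreated related lines too. In HeyC2 against HeyA8, TAP1 was higher by 0.48 ± 0.12 and B2M was lower, at -0.43 ± 0.13 (SE). C13 had TAP1 higher by 0.37 ± 0.12 and PSMB9 higher by 0.77 ± 0.29 than A2008, and by 0.325 and 0.63 without that A2008 culture. DOV13B had HLA-DMA higher by 0.46 ± 0.12 and PSMB9 higher by 0.88 ± 0.29 than DOV13. In each pair 3 of 9 members had a limma adjusted p under 0.05, where 24.2%, 32.8% and 20.2% of all genes did for the Hey, C13 and DOV13B contrasts. Those 9 of 27 combinations of member and pair were 5 without the cultures numbered 2, and 14 without the 3 cultures that stood apart. The shares of all genes were taken for the main fit only.

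The cisplatin changes of related lines were compared in the same way. MR1 changed by 0.62 in HeyC2 and 1.19 in HeyA8, a difference of -0.57 ± 0.22 (SE), and by 0.12 in DOV13B and 0.47 in DOV13, a difference of -0.35 ± 0.20. CIITA in C13 minus A2008 was at -0.59 ± 0.21, and TAP1 there was at 0.38 ± 0.17 (SE). The CIITA change of A2008 was 0.26 with and 0.30 without the culture that stood apart. Of the 27 combinations 0 had a limma adjusted p under 0.05 and 3 had an unadjusted p under 0.05; the fit with culture number as a block gave 0 too. Among all genes 0.755%, 4.82% and 0.0814% passed for the Hey, C13 and DOV13B contrasts.

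Other genes of the pathway were counted from 5 lists, with 55 genes measured outside the members. Of these 8 rose and 0 fell at a limma adjusted p under 0.05, and 14 were higher and 5 lower at an unadjusted p under 0.05. Among all genes 4.98% rose by the same rule, and the median change was 0.01 in the lists and -0.01 in all genes. These lists were drawn up with earlier results of the data known. Without the 11 lines of batch 4 the count was 2, IRF1 and MICA, and in the replicated lines alone it was 4. Of all genes 627 and 1335 passed in these settings in either direction, against 1787 over all lines.

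IRF1, an interferon-induced activator that binds the interferon-regulatory-factor elements of antigen presentation genes, had the lowest p in its list. It rose by 0.35 ± 0.06 (SE, n = 46, 1.28-fold, higher in 37 lines, limma adjusted p = 7.22e-05), with batch means of 0.21 to 0.41. It was the only one of 14 regulators and interferon signalling genes to pass. IRF1 kept the threshold in the replicated lines alone and without batch 4.

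Stress-induced ligands of the receptor NKG2D and other MHC-like genes had 4 rises among 16. MICA rose by 0.29 ± 0.05 (34 lines higher, limma adjusted p = 0.000317) and MICB by 0.31 ± 0.09 (37 lines, limma adjusted p = 0.0138). ULBP2, another NKG2D ligand, rose by 0.26 ± 0.08 (limma adjusted p = 0.0315, but 0.0526 without the cultures numbered 1). PROCR, the endothelial protein C receptor, whose fold resembles CD1, rose by 0.21 ± 0.05 (limma adjusted p = 0.00572). In the replicated lines alone MICA was at 0.17, MICB at 0.26 and ULBP2 at 0.26, each short of the threshold (limma adjusted p of 0.107, 0.0811 and 0.0544).

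The class II pathway had 2 rises among 11 genes. CTSS, a lysosomal protease that trims the invariant chain, and IFI30, a lysosomal thiol reductase, rose by 0.30 ± 0.07 and 0.30 ± 0.08 (limma adjusted p = 0.00569 and 0.00887). Without batch 4 their adjusted p by limma was 0.104 and 0.0583. Of 8 proteasome subunits and activators, PSME2, a subunit of the interferon-inducible PA28 activator, rose by 0.21 ± 0.06 (limma adjusted p = 0.0146), and it was at 0.10 with an adjusted p of 0.258 by limma in the replicated lines alone. Of 6 class I and peptide loading genes, 0 passed by limma and 2 had an unadjusted p under 0.05. Those were ERAP2, an aminopeptidase that trims peptides, at 0.17 ± 0.07 (limma adjusted p = 0.156) and CANX, which encodes the chaperone calnexin, at -0.09 ± 0.04 (limma adjusted p = 0.202).

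**Figure D5:**
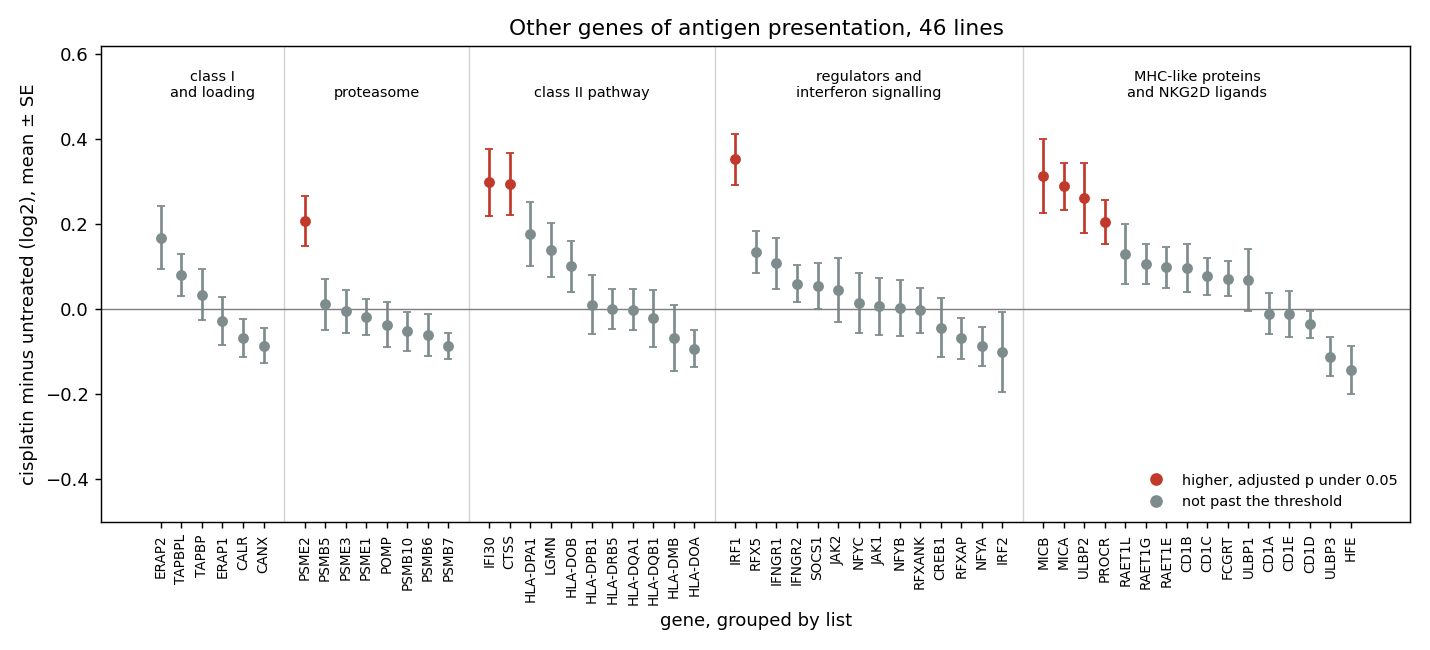
Mean cisplatin minus untreated (log2) with its SE over 46 lines for 55 genes of 5 lists, ordered by size within each list, in red where the limma adjusted p was under 0.05 and in grey otherwise. The 8 red genes are PSME2, IFI30, CTSS, IRF1, MICB, MICA, ULBP2 and PROCR, all above 0.

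Class I heavy chains were measured only by probe sets that carry several gene symbols, so their values are uncertain as to the gene. The probe set shared by HLA-B and HLA-C rose by 0.22 ± 0.07 (higher in 37 lines, limma adjusted p = 0.0262). That of HLA-F, which is annotated with other symbols too, rose by 0.21 ± 0.06 (limma adjusted p = 0.0113) and that of HLA-DRB1 by 0.23 ± 0.07 (limma adjusted p = 0.0248). That of PDIA3, which encodes a thiol oxidoreductase of the peptide loading complex, fell by 0.16 ± 0.04 (lower in 28 lines, limma adjusted p = 0.0139). HLA-DRA was at 0.03 and CD74, the invariant chain, at 0.08 (limma adjusted p = 0.786 and 0.411).

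Of 14 leukocyte markers, 0 passed by limma over all lines and 0 had an unadjusted p under 0.05. PTPRC had a mean difference of -0.02 ± 0.06, with 23 lines higher and 23 lower (limma adjusted p = 0.915). Of 12 ovarian carcinoma markers 0 rose and 2 fell, KRT19 at -0.23 ± 0.08 and CLDN3 at -0.19 ± 0.06 (limma adjusted p = 0.042 and 0.0256). In batches 1 to 5 KRT19 was at -0.08, -0.07, 0.30, -0.54 and -0.32. CLDN3 was at 0.12, -0.06, -0.02, -0.39 and -0.28.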

How the data were processed

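RNA of 171 Affymetrix arrays was measured, and 4 repeat arrays of a numbered culture were averaged, which left 167 cultures. The authors deposited a table of 33297 probe sets in log2 units. RMA is the tool that the submitters' processing notes name, with a version not given in the sources used here. The values ran from 0.469 to 14.48. The upper quartile of an array was 7.82 to 8.08 in batches 1 to 3 and 5.80 to 6.59 in batches 4 and 5. The number of arrays limits the precision.

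Of the probe sets 19460 had 1 symbol in the platform annotation, 1754 had several and 12083 were not listed there. The first were used, with the probe set of highest mean kept per gene (18417 genes), and symbols were updated through RefSeq. TAP1, PSMB8 and PSMB9 had 3 probe sets each with identical values. Changes were taken within line and batch and tested against 0 with limma 3.58.1 in R 4.3.3 (lmFit, eBayes), or, for the 18 replicated lines, in a group-means model with 71 residual degrees of freedom. OVCA433, in batches 2 and 4, was combined by least squares. Untreated PA-1 and SKOV-3 cultures of batch 5 had no cisplatin partner there and entered no change or centred level. Adjustment was Benjamini-Hochberg over all genes, with a threshold of 0.05.

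The members and lists were chosen with earlier results of these data known. All members were named; of each list, up to 4 genes past the threshold, or otherwise the 2 with the smallest p; likeness used the 5 highest Pearson r. HLA-B, HLA-C, HLA-DRA, CD74, IRF1 and PTPRC were named in any case; HLA-F, HLA-DRB1, PDIA3 and the line ovary1847 were singled out after their values were seen. Culture numbers did not pair the samples. The fits were tested on simulated data. Contrasts between lines are given without p-values, since the rule used the same values.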

Additional observations from a re-analysis of the deposited data

How the results depend on the processing

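The mean changes of the members over all lines kept their sign for the 5 past the threshold and for B2M and CIITA under all 15 alternatives, and MR1 lay between 0.54 and 0.68; TAP2 ran from -0.12 to 0.16 and NLRC5 from -0.05 to 0.06. Of the pathway genes, 8 rose in the comparison as reported. That count was 2 without the lines of batch 4, 4 with only the replicated lines, 3 with only batches 4 and 5, 13 with probe sets of several symbols included and 13 with array weights. With a 1.2-fold minimum it was 0 by limma, where 0 had an unadjusted p under 0.05. Of all genes 1787 passed in either direction as reported, 627 without batch 4 and 1335 with only the replicated lines. With only batches 4 and 5, several symbols included or array weights, 987, 1980 and 2657 did. The count of pathway genes that fell, 0 as reported, was 2 with batches weighted equally and 1 with only the replicated lines. It was 1 with 1 line of each family, 1 with several symbols included and 4 with array weights. ERAP2 passed in 3 alternatives. The causes were not tested. Within replicated lines the 39 higher and 2 lower combinations became 23 to 33 and 0 to 3 with 1 culture number left out, and 49 and 5 without the 3 cultures that stood apart. The 9 untreated differences between related lines became 5 to 8 with 1 number left out, and 14 without those 3 cultures. For neither count was the share of all genes taken under these settings. The 3 cultures and the line OVCAR-10 were chosen after seeing the data. With a replicate block the counts were 35 higher and 2 lower, 6 members by the F test and 0 related-line changes, against 39, 2, 6 and 0. Cultures of the same number in opposite arms had a median correlation of deviations of -0.0251 over 53 pairs (7 over 0.1), and in 0 lines did every pair exceed 0.1, so the numbers do not pair the samples.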

Other observations

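Untreated PA-1 and SKOV-3 of batch 5, which entered no comparison, can be set within their batch of 19 untreated lines. PA-1 had the lowest MR1 (3.31), B2M (6.98) and PSMB8 (2.95) of that batch, and it was lowest for MR1 and B2M in batch 1 to 3 as well. SKOV-3 had MR1 at 4.19 and HLA-DMA at 4.68, the lowest HLA-DMA of the batch.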
